A study of Oryctolagus cuniculus with 12 samples.

Results

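Ion channel genes were followed in the aortic wall of rabbits with an experimental coarctation, a narrowing that raises blood pressure upstream of it. The group held every rabbit gene with a probe whose RefSeq accession carried a symbol beginning with KCN, CACN, SCN and a digit, CLCN, CLIC, TRPC, TRPM, TRPV, HCN and a digit, or ITPR, with KCNMB1 left out. This gave 57 genes and 142 probes among the 1264 genes that could be named on the array, and no probe for an IP3 receptor or a TRPM channel was among them. Of these 57 genes, 22 had 1 probe and 35 had several, and each gene is described by its brightest probe, so levels of different genes cannot be ranked against each other. Male New Zealand white rabbits underwent surgery at about 10 weeks of age and aortic rings of 4 mm were taken at 32 weeks, from the aorta upstream of the narrowing. In the CoA group a permanent silk suture held a gradient of 20 mmHg. The Corrected group was tied to the same gradient with a dissolving Vicryl suture, so that its narrowing was temporary. From the strength of the suture the paper infers that pressure then returned to normal for months before harvest, and it describes a modest residual narrowing. It also cites earlier work with this model, in which upstream blood pressure was higher in CoA than in either control or corrected rabbits. The Control rabbits were non-experimental, without a sham operation, so surgery, suture and pressure cannot be told apart in a comparison with them. Each group had 4 rabbits with 1 array each, and Corrected replicate 3, which the study set aside for its intensity distribution, was kept out of all tests.

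Ion channels set the membrane potential and the calcium entry of arterial smooth muscle. Voltage-gated calcium channels open on depolarization and start contraction, their pore being carried to the membrane and tuned by beta and alpha2delta subunits. Potassium channels hyperpolarize the cell and oppose this entry, in vascular muscle through voltage-gated, calcium-activated, inward rectifier and ATP-sensitive types. TRP channels pass cations in response to stretch, heat, lipids or receptor signals, and several of them, like the sodium channel SCN9A, are best known from sensory nerves. Chloride channels and exchangers of the CLCN family sit on the plasma membrane or on endosomes and lysosomes.

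Of the 57 genes, 38 were well above background on at least 8 of the 12 arrays and were tested, 25 of them on all 12. Another 11 were well above background on 1 to 7 arrays and 8 on none. The undetected genes included CACNA1C, CACNA1S, CACNG7, CLIC6, KCNJ12, KCNK5 and TRPV6. CACNA1C encodes the pore of the L-type calcium channel of smooth muscle, and its only probe gave a log2 signal of 1.31 to 1.89 over the 11 arrays, which is a bound on the signal and no level. The rings held the whole wall of the aorta, and in such bulk tissue fewer cells of a type and less RNA per cell cannot be told apart.

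Markers of the tissue were measured on the same arrays. All 6 smooth muscle markers with a probe (ACTA2, CALD1, DES, MYH11, TPM1 and TPM2) were well above background on all 12 arrays, and their summed log2 signal was 16.59 to 17.69 on Control, 16.70 to 17.83 on CoA and 17.56 to 17.83 on Corrected arrays. Of the 10 endothelial markers listed, only NOS3 and KDR had a probe, KDR was well above background on 2 arrays, and the sum was 5.16 to 6.28, 3.73 to 5.81 and 4.70 to 6.79. Nerve and glia markers, 4 of 17 with a probe, summed to 12.39 to 13.04 on Control, 13.05 to 13.70 on CoA and 12.73 to 13.63 on Corrected arrays, and adipocyte markers, 5 of 9, to 12.22 to 13.84, 8.97 to 12.0035 and 10.95 to 13.17. Macrophage markers, 2 of 8, summed to 10.65 to 12.64, 12.65 to 14.41 and 12.41 to 13.16, and cardiac muscle markers, 4 of 13, to 11.26 to 12.61, 13.15 to 16.66 and 12.95 to 14.20. Skeletal muscle markers, 9 of 15 and among them the channel gene CACNG1, summed to 9.10 to 10.81, 10.73 to 15.45 and 11.72 to 12.13. TNNC2 was the brightest of these 9 on each array. Over the 8 tested skeletal markers the median difference from Control was -0.38 for CoA and 0.28 for Corrected. The highest CoA sums of both muscle lists came from CoA replicate 2, where TNNC1 read 16.21, TNNC2 15.07 and CKM 13.28. Fibroblast and matrix markers, 4 of 8, lay between 17.16 and 18.68 on all 11 arrays, and those of T cells and the thymus, 4 of 10, at 6.96 to 8.28, 5.99 to 7.97 and 5.69 to 6.45. The part of these mixtures in the channel values below was not tested.

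In CoA aorta, 8 of the 38 tested channel genes had higher signal than in Control aorta at an unadjusted p under 0.05, and none had lower signal. They were the potassium channel pores KCNB2 and KCND2, the calcium channel subunits CACNB1 and CACNB2, the sodium channel SCN9A, and TRPC1, TRPC5 and TRPV1. The share was 21.1%, against 14.2% of all 27287 tested probes and 16.6% of the 956 tested genes with a name, and in the higher direction 7.55% of all probes passed. CACNB2, KCNB2 and KCND2 were also past 2-fold, 7.89% of the genes against 8.81% of all probes. This count of 3 was 1 when Control replicate 4 or CoA replicate 2 was left out and 6 when CoA replicate 3 was. Past 2-fold in these fits were 5.66%, 7.11% and 12.4% of all probes. After Benjamini-Hochberg adjustment over all probes limma called 0 channel genes and 0 probes in each of the 3 comparisons, and the smallest adjusted p among channel genes was 0.217 for CoA vs Control. The count of 8 was 4 when Control replicate 1, Control replicate 4 or CoA replicate 2 was left out, and in each of these fits the 4 were KCNB2, SCN9A, TRPC5 and TRPV1. Of all probes 10.1%, 8.05% and 12.4% passed in these fits. Control replicates 3 and 4 were the most alike of all pairs of arrays, with a spread between bright probes of 0.144 on the log2 scale against 0.284 for the next pair, and taken as 1 sample they also left these 4 genes.

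**Figure D1:**
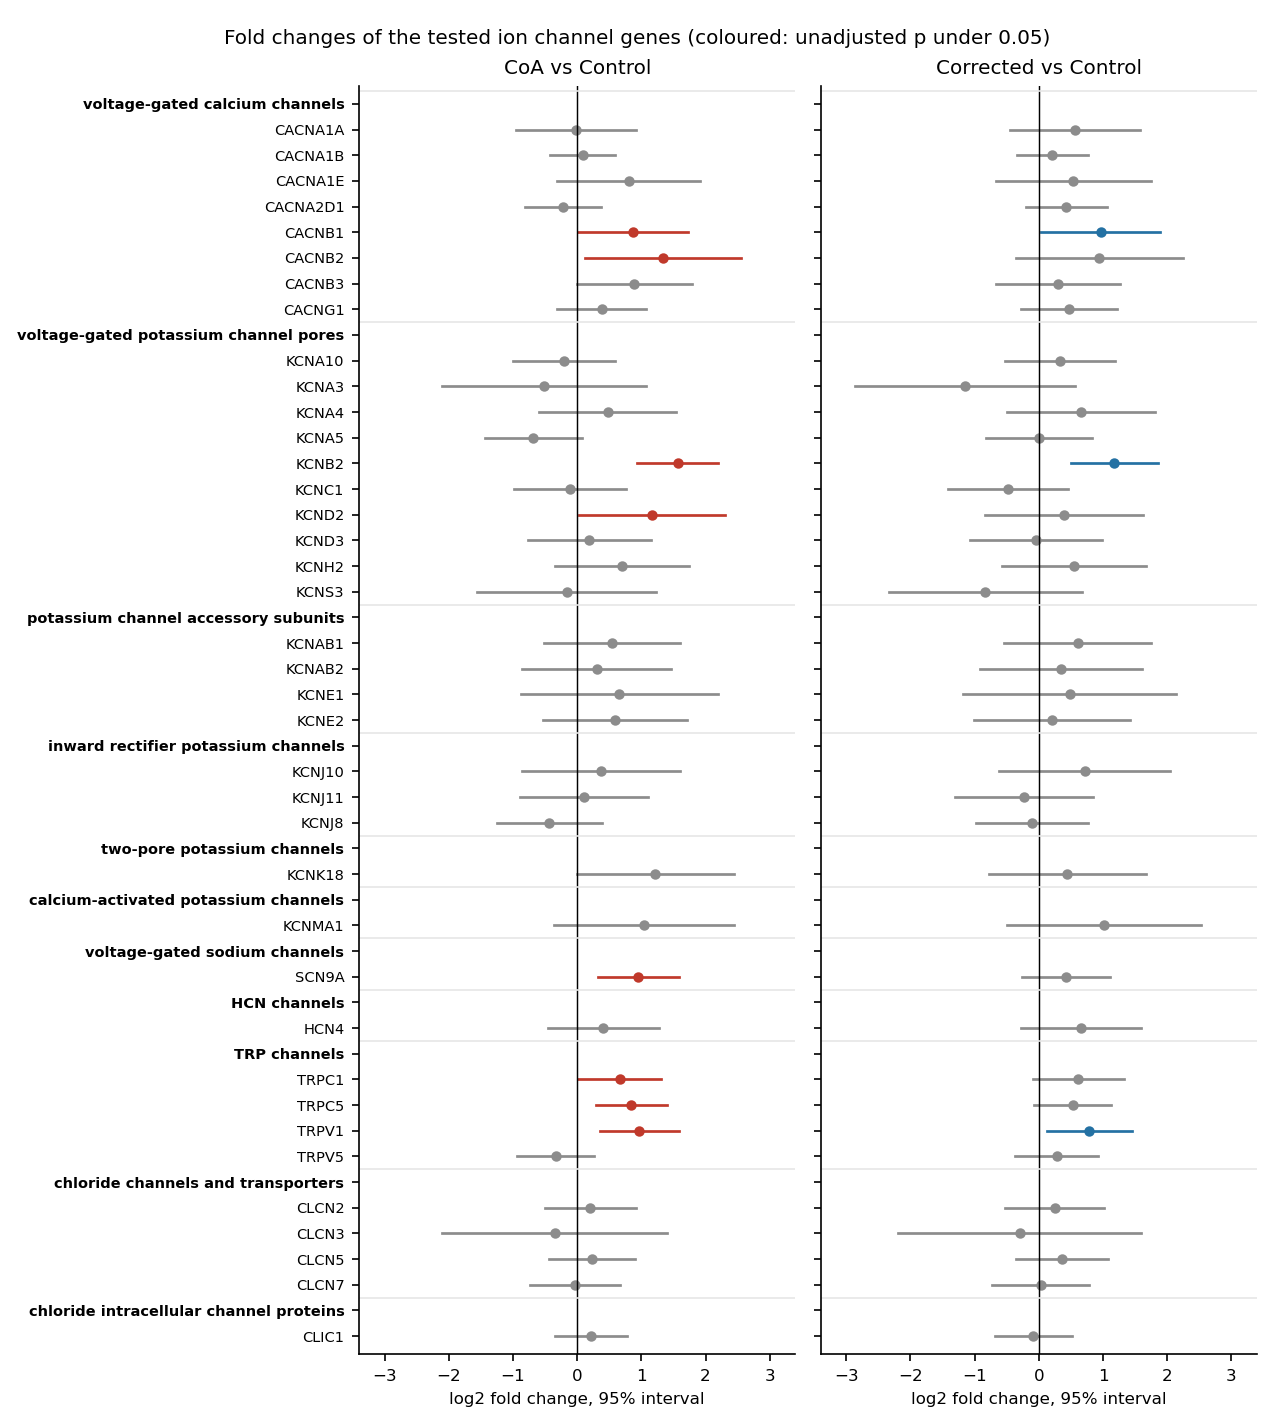
Log2 fold change and 95% interval (x axis) of the 38 tested channel genes, by family, for CoA vs Control (left) and Corrected vs Control (right). Coloured intervals mark an unadjusted p under 0.05, 8 genes on the left and 3 on the right, and 27 and 30 of the 38 points lie above 0.

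KCNB2, a pore of delayed rectifier potassium channels, had the largest fold change of the 38 genes in both comparisons with Control. Its log2 signal was 6.93, 6.42, 6.28 and 6.29 on the Control arrays and 8.22, 8.04, 7.73 and 8.18 on the CoA arrays. On the Corrected arrays it was 8.20, 7.11 and 7.66. All CoA and Corrected values lay above all Control values. CoA exceeded Control by 1.56 (95% interval 0.94 to 2.19), a 2.96-fold difference, with an unadjusted p of 0.000188 and an adjusted p of 0.217 in limma, and with the smallest p that an exact two-sided permutation of 4 against 4 arrays can give, 0.029. Corrected exceeded Control by 1.18 (0.50 to 1.85), or 2.26-fold, with an unadjusted p of 0.0028 and an adjusted p of 0.370. CoA and Corrected overlapped and differed by 0.39 (-0.29 to 1.06). The gene had 5 tested probes, and each of them passed the unadjusted threshold in both comparisons, with log2 differences of 1.35 to 1.66 for CoA and 1.12 to 1.28 for Corrected. Leaving out CoA replicate 2 left the CoA difference at 1.57. The set-aside array, Corrected replicate 3, read 6.70, inside the Control range. A slide here means arrays that share a scan time, as no slide identifier was read. With slide as a block, which for Corrected vs Control rests on the slide that held Corrected replicate 2 and 3 Control arrays, the Corrected difference was 0.56 (unadjusted p = 0.24), the same as within that slide, while all CoA arrays shared a slide of their own, so that slide and coarctation cannot be told apart.

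**Figure D2:**
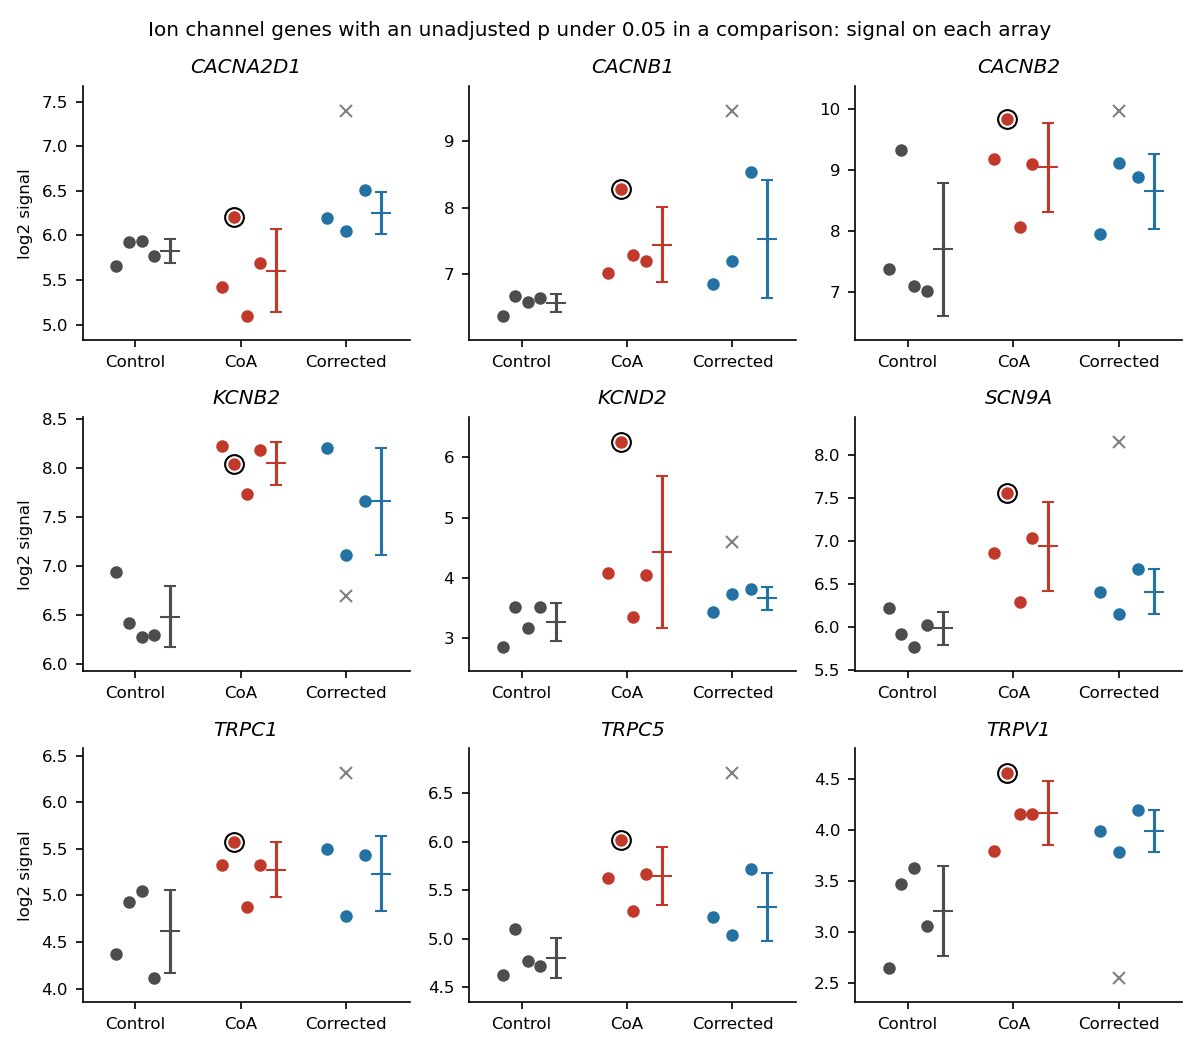
Quantile normalized log2 signal (y axis) of the 9 channel genes with an unadjusted p under 0.05 in at least 1 comparison, 1 panel each. Points are arrays, bars the mean and SD, the black ring CoA replicate 2 and the grey cross Corrected replicate 3, which was not tested; in KCNB2 the ringed point lies within the other CoA values, and in KCND2 it lies far above them.

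KCND2, a pore of fast inactivating A-type channels, was near background. It read 2.86, 3.51, 3.18 and 3.51 on Control, 4.08, 6.26, 3.36 and 4.04 on CoA and 3.44, 3.74 and 3.81 on Corrected arrays. CoA replicate 2 stood far above the others and the groups overlapped. The CoA difference of 1.17 (unadjusted p = 0.045, adjusted p = 0.345) became 0.56 without that array (unadjusted p = 0.067), and the Corrected difference was 0.40. The other KCND2 probes were well above background on at most 1 array. KCNA5, a delayed rectifier of vascular smooth muscle, ran the other way. Its signal was 6.57, 5.69, 5.94 and 5.98 on Control, 5.30, 5.17, 5.06 and 5.92 on CoA and 6.83, 5.47 and 5.84 on Corrected arrays. CoA replicates 1, 2 and 3 lay below all Control values and CoA replicate 4 did not. The difference for CoA was -0.68 (-1.44 to 0.08, unadjusted p = 0.073) and for Corrected 0.00 (-0.82 to 0.82). Among the other 7 tested voltage-gated potassium pores, log2 differences from Control ran from -0.52 for KCNA3, best known from T cells, to 0.70 for KCNH2, the rapid delayed rectifier of the heart, in CoA, and from -1.15 for KCNA3 to 0.65 for KCNA4 in Corrected aorta, with none past the threshold. Over the 10 pores the median was 0.04 for CoA, or -0.26 without CoA replicate 2, and 0.17 for Corrected.

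Voltage-gated calcium channels were represented by 11 genes, of which 8 were tested. Relative to Control, 6 of the 8 were above 0 in CoA and 8 of the 8 in Corrected aorta, and the medians were 0.59 and 0.50, against 0.06 and 0.03 over all tested probes. The CoA median was 0.19 without CoA replicate 2, with 5 of the 8 above 0. CACNB1, a cytoplasmic beta subunit, read 6.38, 6.68, 6.58 and 6.64 on Control, 7.02, 8.28, 7.28 and 7.20 on CoA and 6.86, 7.19 and 8.54 on Corrected arrays. All values of the 2 operated groups were above all Control values, and CoA replicate 2 and Corrected replicate 4 were the highest of their groups. The differences were 0.87 for CoA (unadjusted p = 0.047, adjusted p = 0.347) and 0.96 for Corrected (unadjusted p = 0.043, adjusted p = 0.590), and 5 of 5 and 4 of 5 tested probes passed the unadjusted threshold. Without CoA replicate 2 the CoA difference was 0.60 (unadjusted p = 0.13), and within the slide shared with Control arrays Corrected replicate 2 exceeded them by 0.63.

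CACNB2, the beta subunit most used with cardiac and vascular L-type pores, read 7.38, 9.32, 7.10 and 7.02 on Control, 9.18, 9.83, 8.06 and 9.10 on CoA and 7.95, 9.12 and 8.88 on Corrected arrays. Control replicate 2 lay among the operated rabbits and the other Control arrays below all of them. The CoA difference was 1.34 (0.13 to 2.55), or 2.52-fold, with an unadjusted p of 0.033 and an adjusted p of 0.322, and the Corrected difference 0.95 (unadjusted p = 0.14). Only the brightest of its 6 probes passed, and the 6 probes gave 0.33 to 1.34 for CoA. Without CoA replicate 2 the brightest probe gave 1.07 (unadjusted p = 0.091). CACNB3, a beta subunit also found in smooth muscle, read 11.003, 11.06, 11.41 and 10.48 on Control, 11.83, 12.19, 11.31 and 12.20 on CoA and 10.86, 10.59 and 12.41 on Corrected arrays. The value of CoA replicate 3 lay within the Control range and the other CoA values above it, and the difference of 0.89 (-0.01 to 1.78) had an unadjusted p of 0.051, with 0.30 for Corrected aorta.

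**Figure D3:**
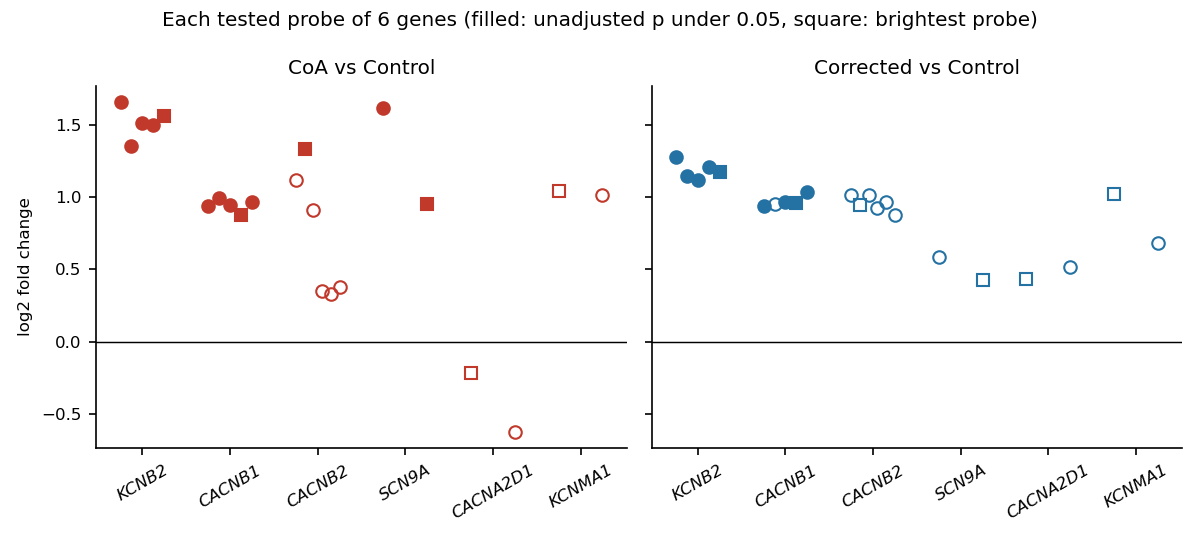
Log2 fold change (y axis) of every tested probe of 6 genes with at least 2 tested probes, for CoA vs Control (left) and Corrected vs Control (right). Filled symbols have an unadjusted p under 0.05 and squares are the brightest probes; all 5 KCNB2 probes are filled on both sides, and 1 of the 6 CACNB2 probes on the left.

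CACNA2D1, the alpha2delta subunit that binds gabapentin, was the only channel gene whose brightest probe passed the threshold between CoA and Corrected. It read 5.66, 5.92, 5.94 and 5.77 on Control, 5.42, 6.21, 5.10 and 5.69 on CoA and 6.20, 6.05 and 6.51 on Corrected arrays. The Corrected values lay above all Control values, and 3 of the 4 CoA values lay below all Corrected values. CoA was lower than Corrected by 0.65 on the log2 scale (difference -0.65, -1.29 to -0.01, unadjusted p = 0.047, adjusted p = 1.00), and both tested probes passed. Against Control the differences were -0.22 for CoA and 0.43 for Corrected (unadjusted p = 0.17). CACNA1E, the pore of R-type channels of neurons, read 4.28, 4.28, 4.22 and 3.85 on Control, 4.27, 6.73, 4.41 and 4.42 on CoA and 4.48, 4.29 and 5.31 on Corrected arrays. All Corrected values were above all Control values, the lowest of them only just, and the difference of 0.54 had an unadjusted p of 0.35. The remaining CACNA1A, CACNA1B and CACNG1, pores of nerve terminals and a subunit of skeletal muscle, lay between -0.02 and 0.38 in CoA and between 0.21 and 0.57 in Corrected aorta.

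SCN9A was the only tested voltage-gated sodium channel. Its signal was 6.22, 5.92, 5.77 and 6.02 on Control, 6.86, 7.55, 6.29 and 7.04 on CoA and 6.41, 6.15 and 6.67 on Corrected arrays. All CoA values exceeded all Control values, while Corrected overlapped both groups. The CoA difference was 0.95 (0.32 to 1.58), or 1.93-fold, with an unadjusted p of 0.0069, an adjusted p of 0.259 and an exact permutation p of 0.029. Its second tested probe gave 1.62 and also passed, and it alone of the pair passed for CoA vs Corrected, at 1.03 (unadjusted p = 0.013). Corrected differed from Control by 0.43 (unadjusted p = 0.20), and CoA from Corrected by 0.52 (-0.16 to 1.21). Without CoA replicate 2 the CoA difference was 0.75 (unadjusted p = 0.015).

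Of the 4 tested TRP channels, 3 passed for CoA vs Control. TRPC5, a receptor-operated cation channel, read 4.62, 5.10, 4.77 and 4.72 on Control, 5.63, 6.01, 5.28 and 5.66 on CoA and 5.22, 5.04 and 5.72 on Corrected arrays, with all CoA values above all Control values. The CoA difference was 0.84 (unadjusted p = 0.0067, adjusted p = 0.258) and the Corrected difference 0.53 (unadjusted p = 0.081). These values rest on 1 detected probe. The other TRPC5 probe was well above background on 0 arrays, and its CoA difference was -0.32. TRPV1, the capsaicin receptor, was well above background on only 8 of the 12 arrays, 2 of Control, 3 of CoA and 3 of Corrected. It reached the 8 arrays needed for a test only through the operated groups, where its signal was higher, so the filter itself favoured such a difference. It read 2.65, 3.46, 3.63 and 3.06 on Control, 3.79, 4.56, 4.16 and 4.15 on CoA and 3.99, 3.78 and 4.19 on Corrected arrays. All tested CoA and Corrected values exceeded all Control values. The differences were 0.96 for CoA (unadjusted p = 0.0055, adjusted p = 0.254) and 0.79 for Corrected (unadjusted p = 0.024, adjusted p = 0.552). The detection floor, the lowest signal of any probe well above background, also differed by group. It was 2.31 to 3.12 on Control, 3.10 to 4.40 on CoA and 3.22 to 3.82 on the tested Corrected arrays. TRPV1 on CoA replicate 3, at 4.16, lay under the 4.40 of that array. On Control replicates 1 and 4, at 2.65 and 3.06, it lay under their floors of 2.70 and 3.12. The part of this floor in the TRPV1 differences was not tested. TRPC1, a subunit of store- and receptor-operated channels, read 4.37, 4.93, 5.05 and 4.12 on Control, 5.33, 5.58, 4.88 and 5.33 on CoA and 5.50, 4.78 and 5.43 on Corrected arrays. These groups overlapped, and the differences were 0.66 for CoA (unadjusted p = 0.048, adjusted p = 0.348) and 0.62 for Corrected (unadjusted p = 0.080). The other TRPC1 probes were well above background on 0 arrays. TRPV5, an epithelial calcium channel, was at -0.33 in CoA and 0.28 in Corrected aorta. Without CoA replicate 2, TRPC5 stood at 0.72 and TRPV1 at 0.83, both past the threshold, and TRPC1 at 0.56 (unadjusted p = 0.097).

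Other potassium channels of vascular muscle did not pass. KCNMA1, the pore of the large-conductance calcium-activated channel, read 7.21, 6.05, 5.93 and 6.03 on Control, 6.68, 9.18, 6.58 and 6.97 on CoA and 6.72, 6.61 and 8.64 on Corrected arrays. CoA replicate 2 and Corrected replicate 4 stood far above the other arrays of their groups. The difference from Control was 1.05 (-0.36 to 2.45, unadjusted p = 0.13) for CoA and 1.02 (-0.50 to 2.53) for Corrected, and 0.44 for CoA without replicate 2. KCNJ8, a pore of ATP-sensitive channels, read 9.54, 9.03, 8.46 and 8.55 on Control, 8.81, 7.50, 8.52 and 9.03 on CoA and 9.06, 8.59 and 8.72 on Corrected arrays. The groups overlapped, at -0.43 (-1.24 to 0.38) for CoA and -0.11 for Corrected. The other such pore, KCNJ11, read 5.01, 5.40, 5.42 and 4.22 on Control, 4.67, 6.33, 4.75 and 4.71 on CoA and 5.36, 4.89 and 4.09 on Corrected arrays, with differences of 0.10 and -0.23. KCNK18, the only tested leak channel of the KCNK family, was at 1.22 in CoA (unadjusted p = 0.051). Its spot on CoA replicate 4 carried an outlier flag and was dropped, and the other CoA arrays read 5.55, 7.91 and 5.60, so that without CoA replicate 2 the difference was 0.44 (unadjusted p = 0.22). The 4 tested accessory subunits, KCNAB1, KCNAB2, KCNE1 and KCNE2, were all above 0, from 0.30 to 0.66 in CoA and from 0.21 to 0.60 in Corrected aorta, and none passed. KCNE1, the highest of them in CoA, stood at -0.19 and KCNE2 at 0.09 without CoA replicate 2.

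No chloride channel gene passed the threshold. CLCN2, a plasma membrane channel, read 6.82, 6.43, 6.56 and 6.59 on Control, 6.38, 7.75, 6.40 and 6.69 on CoA and 6.93, 6.46 and 7.15 on Corrected arrays. CLCN3, an endosomal exchanger, read 5.91, 6.66, 5.83 and 6.13 on Control, 6.80, 3.71, 5.79 and 6.83 on CoA and 5.98, 7.55 and 3.98 on Corrected arrays. CLIC1, a protein found in soluble and membrane forms, read 13.84, 14.05, 14.61 and 14.56 on Control, 14.64, 14.26, 14.55 and 14.47 on CoA and 14.14, 14.44 and 13.97 on Corrected arrays. None of them separated the groups. CLCN3 was low on CoA replicate 2 and Corrected replicate 4, the arrays on which many other channel genes were high. Over the 4 tested CLCN genes the differences from Control ran from -0.35 to 0.23 in CoA and from -0.29 to 0.36 in Corrected aorta, and for CLIC1 they were 0.21 and -0.08. HCN4, a pacemaker channel, read 4.81, 4.89, 5.17 and 5.20 on Control, 5.25, 6.50, 4.42 and 5.52 on CoA and 5.75, 5.24 and 6.03 on Corrected arrays. All Corrected values were above all Control values, and the difference was 0.66 (unadjusted p = 0.15).

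In Corrected aorta 3 of the 38 genes, CACNB1, KCNB2 and TRPV1, were higher than in Control at an unadjusted p under 0.05, and KCNB2 alone was past 2-fold. The first share was 7.89%, against 8.35% of all probes, 9.41% of the named genes and 4.43% of all probes in the higher direction, and the second was 2.63% against 5.39%. In 6 genes, CACNA1E, CACNA2D1, CACNB1, HCN4, KCNB2 and TRPV1, all Corrected values were above all Control values, 15.8% against 8.85% of all probes separating either way and 5.26% in this direction, and for CoA 5 genes did, CACNB1, KCNB2, SCN9A, TRPC5 and TRPV1, 13.2% against 10.2% and 6.87%. KCNB2 was the only gene left at the threshold when Control replicate 1 or Control replicate 4 was dropped, and 5 genes passed when Corrected replicate 2 was. Of all probes 6.79%, 5.31% and 11.6% passed in these fits. With slide as a block, where Corrected replicate 2 alone is set against Control arrays, 0 of the 38 genes passed the unadjusted threshold, against 2.03% of all probes. Within the slide that held both groups Corrected replicate 2 exceeded the Control mean by 0.73 for TRPV1 and by 0.17 at the median of the 38 genes. With Control replicate 2, Corrected replicate 1 or Corrected replicate 2 left out, 2 genes were past 2-fold, against 7.41%, 8.81% and 8.66% of all probes. Between CoA and Corrected, 1 gene passed, 2.63% against 4.31% of all probes, 4.08% of the named genes and 2.05% of all probes in the lower direction, 0 were past 2-fold against 2.77%, and 0 separated the groups against 4.24%. The first of these counts was 3 without CoA replicate 2 or Corrected replicate 2, 2 without CoA replicate 3 and 0 without any 1 Control array, CoA replicate 1 or Corrected replicate 1. Between 3.35% and 8.55% of all probes passed in these fits. Without CoA replicate 3 or Corrected replicate 4, 1 gene was past 2-fold, against 3.84% and 3.95% of all probes. The same Control arrays entered the comparisons of CoA and of Corrected. Over the 38 genes the median difference was 0.38 for CoA and 0.41 for Corrected vs Control, against 0.06 and 0.03 over all probes and 0.08 and 0.10 over the named genes, and 0.03 between CoA and Corrected. Above 0 were 27 genes for CoA and 30 for Corrected, against 54.5% and 52% of all probes.

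The channel genes as a group were high on certain arrays. The median deviation of the 38 genes from their own means was 0.83 on CoA replicate 2 and 0.41 on Corrected replicate 4, and between -0.31 and 0.13 on the other 9 tested arrays. CoA replicate 2 was the highest CoA array for 28 of the 38 genes, and Corrected replicate 4 the highest Corrected array for 22. Before scaling, these arrays had the lowest median signals of the 11, 20.4 and 28.1 against 29.7 to 64.0, and Corrected replicate 3, at 8.85, had a median deviation of 1.53. CoA replicate 2 was also the highest CoA array for the muscle genes CKM (13.28), CASQ2 (14.50), RYR2 (14.01) and TNNC1 (16.21). For the skeletal muscle marker TNNI2 (3.50) it was the lowest. Among the smooth muscle markers it was the lowest CoA array for ACTA2 (14.47), CALD1 (16.14), MYH11 (12.74) and TPM2 (8.67). For DES (7.58) and TPM1 (11.87) it was the highest. The part of signal level and of muscle tissue in the group differences was not tested. Without CoA replicate 2 the median difference of the genes for CoA vs Control was 0.11, with 22 of 38 above 0, and without Corrected replicate 4 it was 0.24 for Corrected vs Control. KCNB2, SCN9A, TRPC5 and TRPV1 passed the unadjusted threshold with and without CoA replicate 2. Of these, TRPV1 had met the detection filter only through the operated groups, with 2 Control arrays well above background.

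**Figure D4:**
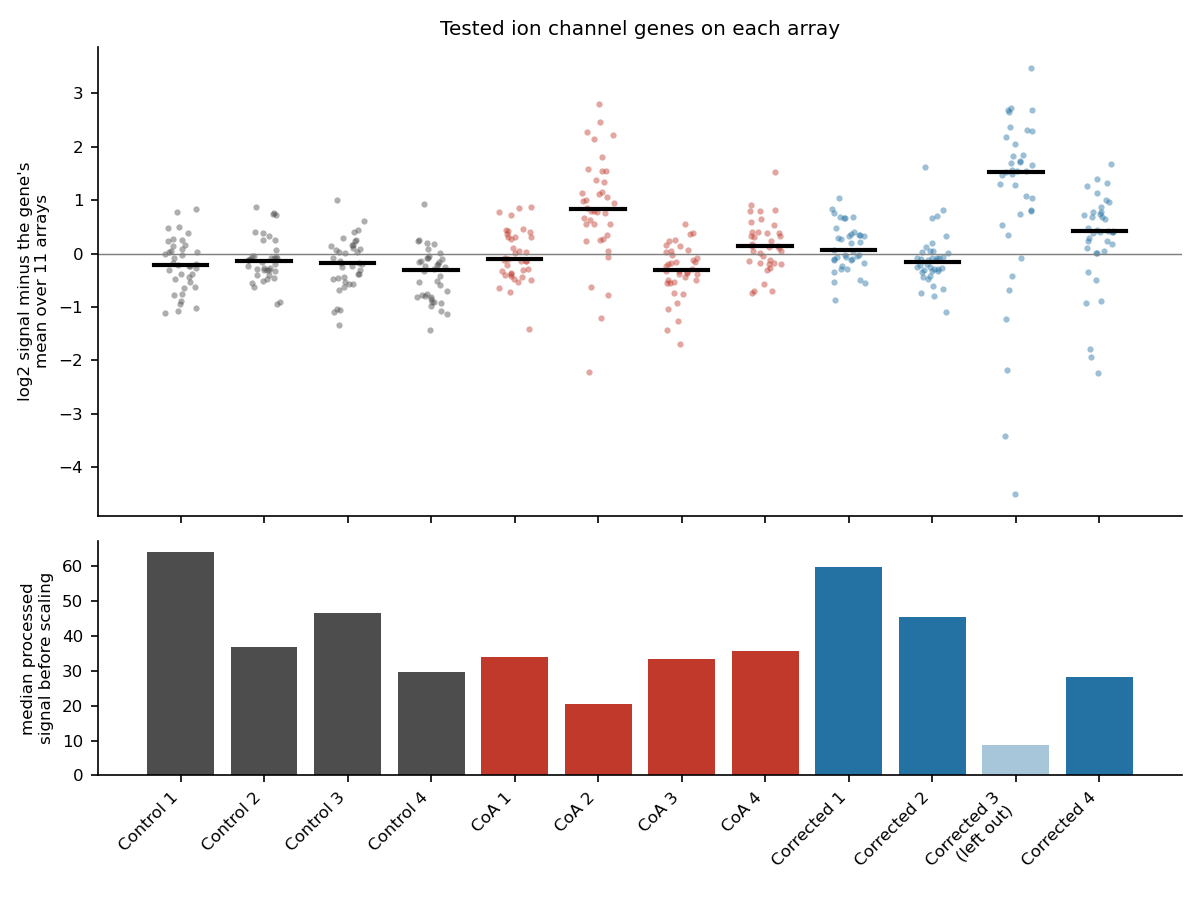
Top, deviation of each of the 38 tested channel genes from its mean over the 11 tested arrays (y axis, log2), by array, with the median as a bar. Bottom, median processed signal of each array before scaling; CoA 2, Corrected 3 and Corrected 4 have the 3 highest medians above and the 3 lowest signals below.

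**Figure D5:**
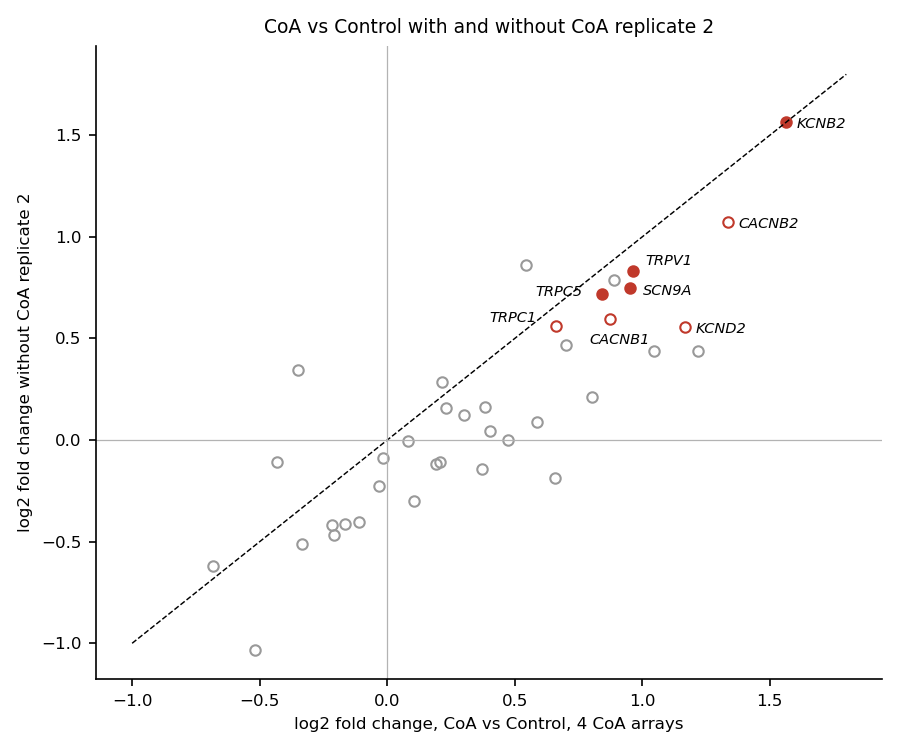
Log2 fold change of the 38 genes for CoA vs Control with all CoA arrays (x axis) and without CoA replicate 2 (y axis); the dashed line marks equality. Red points are the 8 genes past an unadjusted p of 0.05 with all arrays, and filled points pass without that array, which KCNB2, SCN9A, TRPC5 and TRPV1 do.

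Of the 19 genes that were not tested, some have a known part in vascular muscle. KCNJ2, the inward rectifier of small arteries, was well above background on 1 Control, 1 CoA and 3 Corrected arrays, with log2 signals of 2.93, 2.65, 3.76 and 3.25, of 3.13, 5.40, 3.61 and 3.33, and of 3.70, 3.95 and 4.41. KCNA2, a voltage-gated pore, was well above background on 1 Control array, 3 CoA arrays and 0 Corrected arrays. It read 2.41, 2.45, 2.52 and 1.31 on Control, 4.46, 3.98, 3.23 and 5.06 on CoA and 1.44, 3.01 and 1.27 on Corrected arrays. CoA replicate 3, at 3.23, was the CoA array not well above background. The other 5 probes of the gene were well above background on at most 2 arrays and differed between CoA and Control by -0.17 to 0.47. CACNA1C was not well above background on any array. The others included CACNA1S, CACNG7, CLCN6, CLIC6, KCNA1, KCNE4, KCNJ12, KCNK1, KCNK5, KCNK10 and TRPV6.

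Among 59 other genes of ion handling, which pump, store, release or exchange ions or form other channels, 30 had a probe and 26 were tested. For CoA vs Control 7 were higher at an unadjusted p under 0.05 and 1 was lower, with a median of 0.60. The higher genes were ABCC9, the regulatory partner of KCNJ8 and KCNJ11, at 0.98, PLN and FKBP1B, regulators of the calcium pump and of the calcium release channel, at 1.39 and 0.78, CAMK2D, a calcium-dependent kinase, at 0.92, ATP1B1, a sodium pump subunit, at 1.22, and SCNN1B and SCNN1G, epithelial sodium channel subunits, at 1.27 and 0.76. In Corrected aorta 3 were higher, ATP1B1 at 1.01, SCNN1B at 1.16 and SLN, another regulator of the calcium pump, at 1.498, 0 were lower, and the median was 0.65. Between CoA and Corrected only ATP2A1, the calcium pump of fast skeletal muscle, passed, at -2.62. KCNMB1, the smooth muscle beta subunit that partners KCNMA1, was at 0.62 in CoA and 0.25 in Corrected aorta, neither past the threshold.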

How the data were processed

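RNA of 12 aortic rings (4 each of Control, CoA and Corrected) was hybridised with Cy3 to Agilent rabbit arrays. The authors deposited Agilent Feature Extraction (11.0.1.1) output. Used were its processed intensity, background-corrected but not normalized between arrays, the median intensities of spot and background, and other deposited columns that flag spots as well above background or outliers. Signals were quantile normalized over 12 arrays after outlier spots were left out, and analysed as log2 values. Probes well above background on at least 8 arrays entered limma 3.58.1 (R 4.3.3) with 11 arrays, the groups sharing 1 spread, and two-sided p-values were Benjamini-Hochberg adjusted over 27287 probes. The smallest exact permutation p of a gene is 0.029 for 4 against 4 arrays and 0.057 for 4 against 3. The number of arrays limits the precision. Symbols came from RefSeq for the assembly mOryCun1.1 and matched 3368 of 43603 probes. Members and lists were chosen with earlier results of these data known. Described in full are genes at an unadjusted p under 0.05, genes whose groups did not overlap against Control, and genes with a vascular role. Arrays sharing a scan time are called a slide, which need not be a physical slide. Control replicate 3 was alone on its slide and was scanned on another day than all other arrays. No sequences were analysed here, and some genes are counted but not reported by name. Scripts, tested on simulated data, used Python 3.11.15, numpy 2.4.6, pandas 2.3.3, matplotlib 3.10.9, statmod 1.5.0 and the package data.table (1.17.8). Alternatives, 1 of them added after seeing the data, changed arrays, normalization, background, filter, probe and blocks.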

Additional observations from a re-analysis of the deposited data

Results flagged for a closer look

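In 9 of the 75 groups of 4 arrays tested, 1 array lay far from the other 3 by Dixon's ratio, which chance would give in about 1 in 20 groups. CoA replicate 2 had the lowest median signal of the 11 tested arrays and the highest CoA signals of CKM, CASQ2, RYR2 and TNNC1. It had the lowest CoA signals of TNNI2 and of the smooth muscle markers ACTA2, CALD1, MYH11 and TPM2, and the highest of DES and TPM1. On this array 5 channel genes stood high. These were CACNA1E at 6.73 (next array 4.42), KCNA10 at 5.82 (next 4.89), KCNE1 at 8.83 (next 5.71), KCNJ11 at 6.33 (next 4.75) and KCNMA1 at 9.18 (next 6.97), all log2 signals. None of these 5 passed the unadjusted threshold for CoA vs Control. On Control arrays CACNB2 was high on replicate 2 at 9.32 (next 7.38), KCNMA1 was high on replicate 1 at 7.21 (next 6.05), and CACNA1E was low on replicate 4 at 3.85 (next 4.22). KCNS3, a silent subunit that joins other potassium pores, was low on CoA replicate 3 at 3.23 (next 5.46). The cause of these values was not tested.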

How the results depend on the processing

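None of the fold changes of named channel genes reversed past the threshold under any alternative. KCNB2, SCN9A and TRPC5 passed the unadjusted threshold for CoA vs Control under all 25 alternatives that gave a value, TRPV1 under 22 of 23 (not with normexp), and KCNB2 for Corrected vs Control under 25 of 26 (not with slide as a block). The other called genes each lost the threshold under 9 or more alternatives. The 8 channel genes for CoA vs Control were 5 with all 12 arrays, 17 with array weights, 5 with normexp, 13 with slide as a random block and 4 with Control replicates 3 and 4 as 1 sample, where 8.57%, 49.7%, 14.2%, 26.6% and 8.24% of all probes passed. The fits with array weights used all 12 arrays, Corrected replicate 3 among them. With array weights 13 of the 17 were higher and 4 lower (CACNA2D1, KCNA3, KCNA5 and TRPV5). KCNA5 was also called lower with slide as a random block, with only the groups compared and without CoA replicate 4 or Corrected replicate 1, and TRPV5 without CoA replicate 2 and Corrected replicate 4 together. The 3 past 2-fold were 6 with no detection filter, 7 with slide as a random block and 1 without CoA replicate 2 and Corrected replicate 4 together, an alternative chosen after seeing the data. In these fits 8.56%, 11.8% and 7.55% of all probes were past 2-fold. Counts with no detection filter are out of 57 genes, and those with detection on all 12 arrays out of 25. For Corrected vs Control the 3 genes were 6 with array weights, 5 with no detection filter, 0 with slide as a block and 5 with slide as a random block. Of all probes 16.9%, 8.60%, 2.03% and 12.3% passed there. The 1 past 2-fold was 3, 2, 0 and 2, and 0 with normexp, against 9.77%, 5.57%, 2.01%, 7.17% and 2.04% of all probes. For CoA vs Corrected the 1 gene was 3 with all 12 arrays, 2 with array weights, 0 with only the groups compared, 0 with 75th percentile scaling, 3 with no detection filter, 2 with detection on all 12 arrays, 2 with the mean of all detected probes, 0 with the replicate block, 3 with slide as a random block, 0 with Control replicates 3 and 4 as 1 sample and 3 without CoA replicate 2 and Corrected replicate 4. Between 2.77% and 8.89% of all probes passed in these fits. The 0 past 2-fold were 2 with no detection filter and 1 without CoA replicate 2 and Corrected replicate 4, against 3.35% and 2.88% of all probes. Leaving out each array in turn gave 4 to 9 genes at the unadjusted threshold and 1 to 6 past 2-fold for CoA vs Control, against 8.05% to 18.9% and 5.66% to 13.0% of all probes. The ranges were 1 to 5 and 1 to 2 for Corrected vs Control, against 4.21% to 11.7% and 2.80% to 8.81%. For CoA vs Corrected they were 0 to 3 and 0 to 1, against 3.35% to 8.55% and 2.35% to 6.52%. The causes were not tested.

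The correlation of arrays on a slide was -0.148 in the random block, and slide as a fixed block gave no value for comparisons with CoA, which had a slide to itself. Scaling to the 75th percentile moved the median of all probes to 0.22 for CoA and 0.13 for Corrected vs Control, with 0.49 and 0.52 for the channel genes. With array weights, adjusted p-values under 0.05 appeared for all 8 genes of CoA vs Control, KCNB2 having the smallest at 0.00014 (range over alternatives to 0.615), and for 13 of the 38 channel genes and 40.5% of all probes. With slide as a random block they appeared for 4 channel genes and 3.18% of all probes. Arrays with the same replicate number did not stand out from other pairs in how they deviated together. The r across probes was -0.45 to 0.45 over 10 pairs, against -0.54 to 0.44 over 30 other pairs. With so few arrays per group, these ranges cannot settle whether the numbers pair the rabbits. With the replicate block 6 genes passed for CoA vs Control, 3 of them past 2-fold. For Corrected vs Control 2 passed, 1 past 2-fold, and between CoA and Corrected 0.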
